A study of Rattus norvegicus with 6 samples.

Results

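The genes described here are 10 genes of the NLRP3 inflammasome and the interleukin-1 (IL-1) family in rat primary astrocytes, the support cells of the brain grown in culture. They were chosen by symbol, with earlier results of these data known, and all 10 were found among the 22608 symbols of the table. Nlrp3, Pycard and Casp1 encode the inflammasome, Il1a, Il1b, Il18, Il33 and Il1rn encode ligands and an antagonist, and Il1r1 and Il1rap encode the receptor. Poly(A) RNA was sequenced from 3 control libraries and from 3 libraries of astrocytes given β-hydroxybutyrate (BHB), the main circulating ketone body, at 2 mM according to the column names. The study's title asks about glutamate uptake and transporter expression, and none of the 10 genes belongs to that question. The sources used here give no strain, age or duration of treatment. They also do not say whether the libraries came from separate cultures or animals, so a p-value sets the difference only against the spread of these libraries, which may be technical.

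The inflammasome is a protein scaffold in which the sensor NLRP3 recruits the adaptor ASC, encoded by Pycard, and through it the protease caspase-1. Caspase-1 cuts the precursors of IL-1β and IL-18 into their secreted forms. IL-1α and IL-1β signal through IL1R1 and its partner IL1RAP, and IL-33 is stored in nuclei and released from damaged cells. BHB has been described as an inhibitor of NLRP3 inflammasome assembly in macrophages, an event at the protein level that RNA amounts do not record.

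Of the 10 genes, 6 were abundant enough to test, and 0 of these passed at a limma adjusted p under 0.05, where 0.0566% of all genes tested did. A total of 5 stayed at 1 FPKM or more in all 6 libraries. FPKM is a read density per length of transcript and per unit of sequencing depth. Il18 and Il33 were the genes whose 3 BHB libraries all lay below the 3 controls, and they stood at 0.731 and 0.812 times the control mean. Of all genes tested, 4.45% had this arrangement. Il1r1, Il1rap and Pycard had slightly higher means with BHB, at 1.08 to 1.09 times control. Nlrp3, Il1a and Il1rn were under 1 FPKM in every library, Il1b was under 1 FPKM in 5 of 6, and Casp1 lay on both sides of 1 FPKM.

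The start regions of Il18 and Il33 are shown because these were the 2 genes with separated groups. Each is the RefSeq GRCr8 sequence from 250 bases before to 30 bases after an annotated start, on the plus strand, at chr8:59801822-59802101 for Il18 and at chr1:237115323-237115602 and chr1:237134696-237134975 for the upstream and downstream start of Il33. Capitals mark matches to the motifs searched.
Il18: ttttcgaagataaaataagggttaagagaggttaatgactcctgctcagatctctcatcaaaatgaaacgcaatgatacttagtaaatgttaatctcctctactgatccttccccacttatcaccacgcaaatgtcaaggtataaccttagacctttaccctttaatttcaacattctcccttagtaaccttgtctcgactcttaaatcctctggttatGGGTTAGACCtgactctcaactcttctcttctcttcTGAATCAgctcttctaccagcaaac
Il33 upstream start: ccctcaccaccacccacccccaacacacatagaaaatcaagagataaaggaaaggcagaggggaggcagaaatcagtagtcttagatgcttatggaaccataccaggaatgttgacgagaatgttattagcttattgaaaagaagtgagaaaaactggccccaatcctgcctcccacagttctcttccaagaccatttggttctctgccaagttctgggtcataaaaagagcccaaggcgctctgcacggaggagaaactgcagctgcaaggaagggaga
Il33 downstream start: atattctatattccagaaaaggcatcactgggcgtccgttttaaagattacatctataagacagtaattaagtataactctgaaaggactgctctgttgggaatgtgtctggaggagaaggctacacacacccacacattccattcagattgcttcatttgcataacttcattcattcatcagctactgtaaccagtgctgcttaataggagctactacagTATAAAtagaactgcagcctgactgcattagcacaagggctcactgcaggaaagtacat

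Motifs were searched on both strands in windows of 300 bases that run 50 bases past the start. They were the TATA box (TATAAA), a loose NF-kB pattern (GGGNNNNNCC), a loose AP-1 pattern (TGANTCA) and a STAT pattern (TTCNNNGAA), where N is any base. The Il18 window held an NF-kB pattern 31 bases before the start and an AP-1 pattern from base 6 after it. The downstream Il33 window held a TATA box 29 bases before its start, and the upstream window held none of the 4 motifs. These matches overlapped no other. Among all 33465 windows, 47.3% held the NF-kB pattern, 7.33% the AP-1 pattern, 14.2% the TATA box and 8.87% the STAT pattern, so the NF-kB pattern in particular is common. A match describes the letters and not binding.

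All 10 genes had a window, 12 in all, and base composition differed among them. The Il18 window had 39.3% G and C and 4 CpG dinucleotides, and the Il33 windows had 47.0% and 41.0%, against a median of 51.7% over all windows. The Il1r1 window had 65.3%, and the Il1rap windows had 71.7% and 75.3% with 32 and 36 CpG. Both Il1rap windows cover overlapping bases of the same strand, so their values are not independent. The letters of the TATA box were found in Il1a, Il1b, Il1rn and the downstream Il33 window. The Il1b match began 60 bases before the start, and the Il1rn match lay on the opposite strand. In the gene order of GRCr8, Il1a and Il1b are next to each other, Casp1 is followed by its relatives Casp4 and Casp12, and Il1r1 is followed by the receptor genes Il1rl2, Il1rl1, Il18r1 and Il18rap.

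All of the 10 genes were weakly expressed for this culture. Il1r1, the most abundant, had a higher mean than 20.0% of the 12373 genes tested, and Pycard exceeded 5.16%. For comparison, Gfap, the intermediate filament gene that marks astrocytes, averaged 1438 FPKM in controls, and 15 of 16 astrocyte markers reached the minimum for testing. In controls the order was Il1r1, Il18, Il33, Il1rap, Pycard, Casp1, Il1b, Nlrp3, Il1a and Il1rn. The library ranges overlapped between Il1r1 and Il18, Il18 and Il33, Casp1 and Il1b, Nlrp3 and Il1a, and Il1a and Il1rn, so those neighbours are not separated. With BHB the order was Il1r1, Il1rap, Il18, Il33, Pycard, Il1b, Casp1, Il1a, Nlrp3 and Il1rn, with overlapping ranges between Il1rap, Il18 and Il33 and from Il1b through Casp1 and Il1a to Nlrp3.

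**Figure D1:**
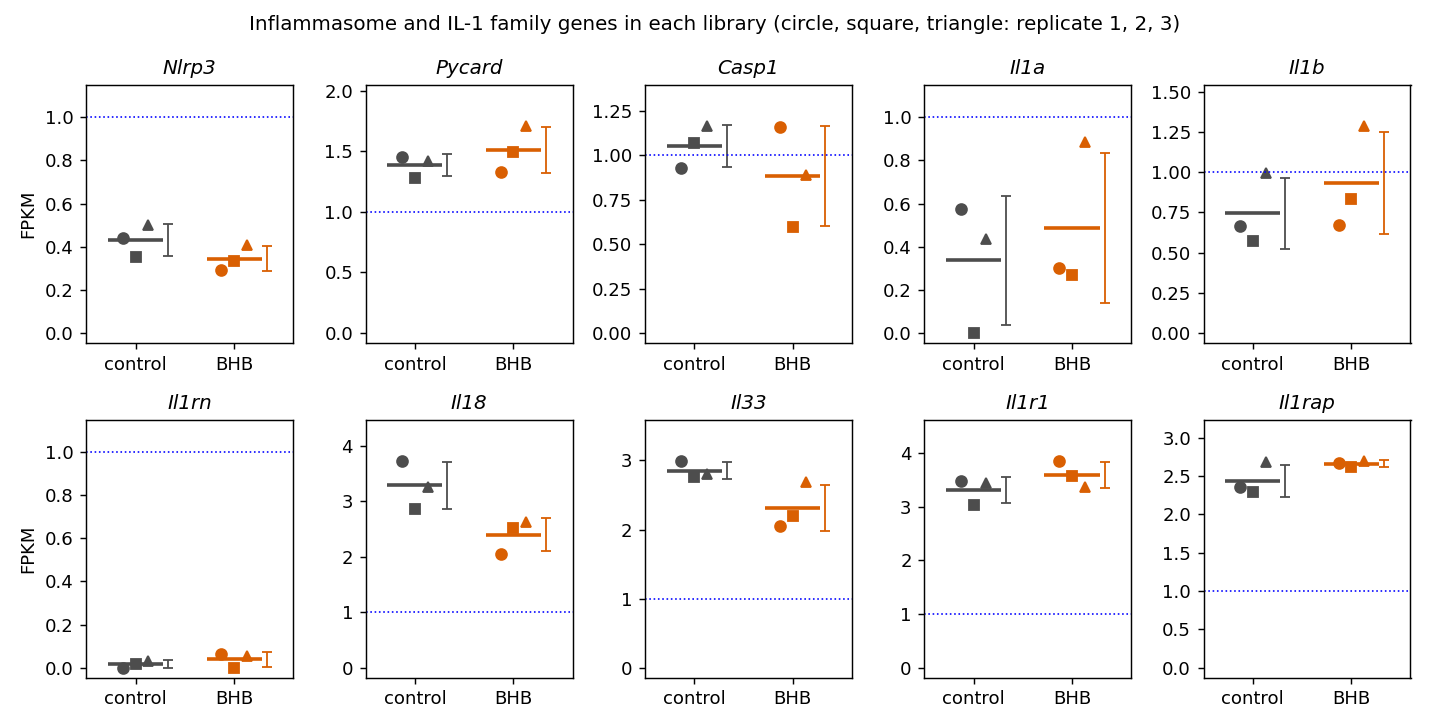
FPKM of the 10 genes in each library, control in grey and BHB in orange, with a bar for the mean, a whisker for the SD (n = 3) and a dotted line at 1 FPKM, each panel on its own vertical scale. Il18 and Il33 are the panels in which the groups do not overlap.

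Nlrp3, which encodes the sensor, stood at 0.441, 0.351 and 0.501 FPKM in controls 1 to 3 and at 0.292, 0.332 and 0.407 FPKM in BHB 1 to 3. The groups overlapped, and the highest BHB library lay below 2 of the 3 controls. The means were 0.431 ± 0.0755 and 0.344 ± 0.0581 FPKM (SD, n = 3 each), and an exact two-sided permutation test gave p = 0.2. Nlrp3 was not among the genes tested across the table, because no library reached 1 FPKM.

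Pycard, the adaptor, was above 1 FPKM in every library. It stood at 1.46, 1.28 and 1.42 FPKM in the controls and at 1.33, 1.49 and 1.71 FPKM with BHB. BHB 2 and BHB 3 exceeded all controls and BHB 1 did not. Its log2 fold change, on the log2(FPKM + 1) scale used throughout, was 0.07 (95% interval -0.13 to 0.28, limma adjusted p = 0.929). It ran from 0.01 without BHB 3 to 0.12 without BHB 1.

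Casp1, the protease, stood at 0.927, 1.07 and 1.16 FPKM in the controls and at 1.16, 0.596 and 0.891 FPKM with BHB. BHB 1 was level with the highest control and BHB 2 was the lowest of all 6. With 3 libraries at 1 FPKM or more, Casp1 just met the minimum for testing, at a mean of 0.967 FPKM over all libraries, and Il1b, at 0.838 FPKM, was the nearest gene outside it. The log2 fold change was -0.13 (95% interval -0.42 to 0.15, limma adjusted p = 0.910). It ran from -0.24 without BHB 1 to -0.02 without BHB 2. The sources used here do not say whether any reads were shared with Casp4 and Casp12 or how such reads were assigned. The value of Casp1 is uncertain to that extent.

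Il18, whose precursor is a caspase-1 substrate, had the highest mean of the ligands in both groups, with ranges that overlapped those of Il33. It stood at 3.72, 2.87 and 3.26 FPKM in the controls and at 2.06, 2.51 and 2.63 FPKM with BHB. Every BHB library lay below every control, with a gap from 2.63 to 2.87 FPKM. The means were 3.28 ± 0.429 and 2.40 ± 0.302 FPKM (SD, n = 3 each). The log2 fold change was -0.33 (SE 0.103, 95% interval -0.57 to -0.10), with an unadjusted p of 0.0118 that ranked 139 of 12373 and a limma adjusted p of 0.881, which did not pass. The exact two-sided permutation p was 0.1, the smallest that 3 against 3 allows, and 0.5 adjusted over the 10 genes.

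Il33, the alarmin, had the same arrangement with a narrower gap. It stood at 2.99, 2.76 and 2.80 FPKM in the controls and at 2.05, 2.20 and 2.69 FPKM with BHB. BHB 3, at 2.69 FPKM, came close to the lowest control, at 2.76 FPKM, and the other BHB libraries lay well below. The means were 2.85 ± 0.123 and 2.32 ± 0.336 FPKM (SD, n = 3 each), and the log2 fold change was -0.22 (SE 0.0912, 95% interval -0.43 to -0.01). Its unadjusted p was 0.0411 and its limma adjusted p 0.881, and the exact permutation p was 0.1. The log2 fold change was -0.16 without BHB 1 and -0.30 without BHB 3.

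Il1b stood at 0.664, 0.574 and 0.994 FPKM in the controls and at 0.673, 0.834 and 1.29 FPKM with BHB. BHB 3 was the library above 1 FPKM, and the other BHB libraries lay within the control range. The means were 0.744 ± 0.221 and 0.931 ± 0.318 FPKM (SD, n = 3 each; exact permutation p = 0.5), and the BHB mean was 0.753 FPKM without BHB 3. Set against the other caspase-1 substrate, Il18 was 5.61, 4.99 and 3.28 times Il1b in controls 1 to 3, and 3.06, 3.01 and 2.04 times in BHB 1 to 3. This ratio was chosen after the values were seen and was not tested.

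Il1a, whose product needs no caspase-1 cut, was at 0.575, 0 and 0.434 FPKM in the controls and at 0.302, 0.271 and 0.887 FPKM with BHB. The spread within each group was wider than the distance between them (exact permutation p = 0.7). BHB 3 was the highest of all libraries, while BHB 1 and BHB 2 lay below the 2 controls that were not at 0.

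Il1rn, the receptor antagonist, was listed at 0, 0.0192 and 0.0329 FPKM in the controls and at 0.0647, 0 and 0.0529 FPKM with BHB. Both groups held a library at 0 and both stayed near it, and no fold change is given. The exact permutation p was 0.4.

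Il1r1, which encodes the signalling receptor, stood at 3.47, 3.04 and 3.44 FPKM in the controls and at 3.85, 3.57 and 3.37 FPKM with BHB. BHB 1 and BHB 2 exceeded all controls and BHB 3 did not. The log2 fold change was 0.09 (95% interval -0.09 to 0.27, limma adjusted p = 0.910), and it was 0.04 without control 2.

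Il1rap, the accessory chain also used by IL-33 and IL-36 receptors, stood at 2.35, 2.28 and 2.68 FPKM in the controls and at 2.67, 2.61 and 2.69 FPKM with BHB. The BHB libraries were tightly grouped and control 3 reached their level. The log2 fold change was 0.09 (95% interval -0.09 to 0.27, limma adjusted p = 0.910), and it was 0.14 without control 3.

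Of the 10 genes, 6 reached 1 FPKM in at least 3 libraries and were tested, 3 with a log2 fold change above 0 and 3 below. Their median was -0.03, against 0.00 for all genes tested. By limma adjusted p, 0 of the 6 passed, where 0.0566% of all genes tested did (7 genes). At an unadjusted p under 0.05 there were 2 of 6, Il18 and Il33, both lower, against 2.14% of all genes tested in that direction. The groups did not overlap, with BHB lower, in the same 2 genes, against 4.45% of all genes tested. The 10 genes were chosen with earlier results of these data known, so these counts describe them and are not a test. In a fit without the minimum 0 of the 10 passed, and Nlrp3, Il1a, Il1b and Il1rn had limma adjusted p-values of 0.904, 0.933, 0.923 and 0.923. BHB 3 held the highest value of 4 of the 10 genes, Pycard, Il1a, Il1b and Il1rap.

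**Figure D2:**
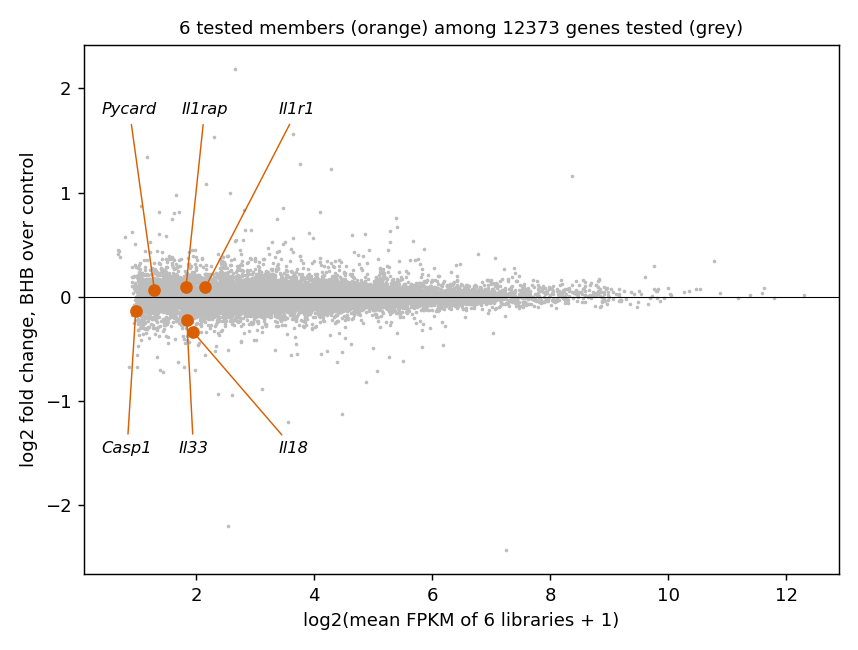
Log2 fold change against mean abundance for the 12373 genes tested (grey), with the 6 tested inflammasome and IL-1 family genes in orange. The 6 lie among the low-abundance genes between -0.33 (Il18) and 0.09 (Il1rap).

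The partners of each cytokine were unevenly present. For IL-1, the decoy receptor Il1r2 was at most 0.199 FPKM and was listed at 0 in 2 libraries, while Il1r1 and Il1rap stood at several FPKM. For IL-18, both receptor chains were at or near 0, with Il18rap listed at 0 in all libraries and Il18r1 at 0 in all but control 3. Il18bp, the secreted inhibitor of IL-18, stood at 4.32 ± 0.0810 FPKM in the control group and 4.10 ± 0.560 FPKM in the BHB group (SD, n = 3), above Il18 itself in both groups. For IL-33, the receptor Il1rl1 reached 0.101 FPKM at most.

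**Figure D3:**
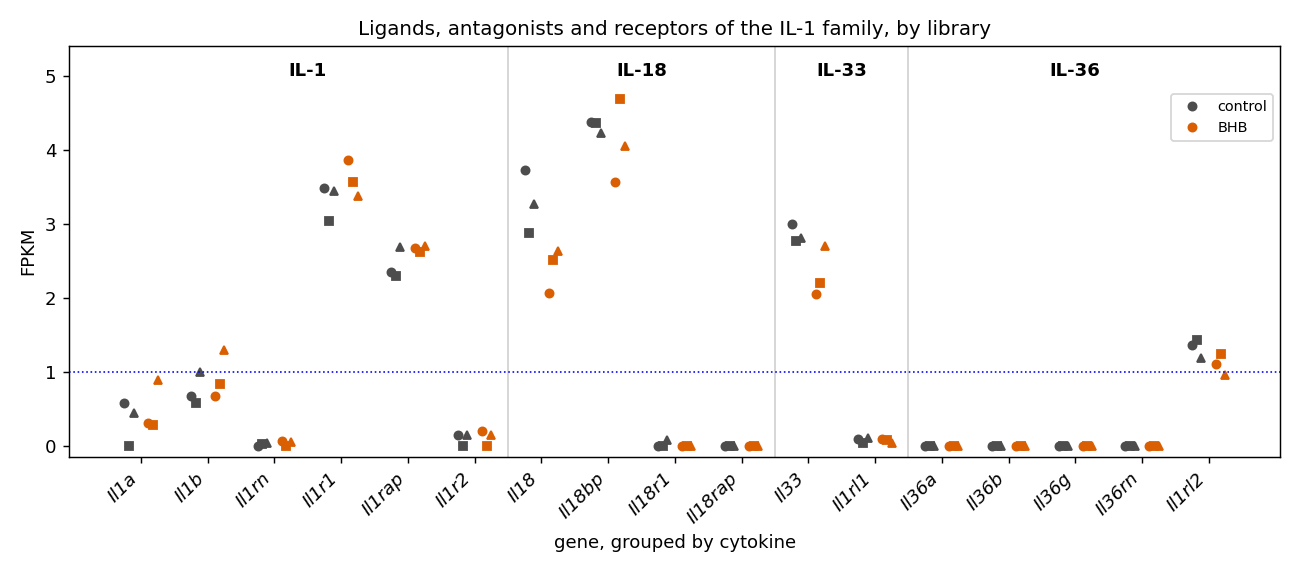
FPKM of IL-1 family ligands, antagonists and receptors in each library, grouped by cytokine, with control in grey, BHB in orange, circle, square and triangle for replicates 1, 2 and 3, and a dotted line at 1 FPKM. Il18, Il18bp and Il33 are expressed while their receptor genes Il18r1, Il18rap and Il1rl1 lie at or near 0 in both groups.

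Of 14 other IL-1 family genes, 2 were tested, Il18bp and Il1rl2, a chain of the IL-36 receptor. Il1rl2 stood at 1.36, 1.42 and 1.18 FPKM in the controls and at 1.11, 1.24 and 0.956 FPKM with BHB, with overlapping groups (log2 fold change -0.14, limma adjusted p = 0.890, and -0.09 without BHB 3). The IL-36 ligands Il36a, Il36b and Il36g and their antagonist Il36rn were listed at 0 in all libraries. The genes named here beyond Il18bp and Il1rl2 were chosen after their values were seen.

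Of 19 other inflammasome and pyroptosis genes 10 were tested, 6 above 0 and 4 below, with a median log2 fold change of 0.07. In limma 0 passed or reached an unadjusted p under 0.05. Of all genes tested, 0.0566% passed, and 3.45% (higher) and 2.14% (lower) reached that unadjusted p. With shares this low, 0 of 10 says little about this list. The most abundant was Txnip, a thioredoxin inhibitor that can bind NLRP3, at 49.7 ± 2.85 and 47.7 ± 0.525 FPKM (SD, n = 3 each; log2 fold change -0.06). Dfna5, the older symbol of the pore-forming gasdermin E, had 0.13, Ninj1, which ruptures the membrane of dying cells, 0.12, and Casp4, the caspase of the noncanonical pathway, 0.08. Single libraries moved these values, to 0.03 for Dfna5 without control 3, to 0.04 for Ninj1 without BHB 1, to 0.03 for Casp4 without control 1 and to -0.01 for Txnip without control 2. The other sensors in the list, Nlrp1a, Nlrp1b, Nlrc4, Nlrp6, Nlrp12, Aim2, Mefv and Naip6, named after their values were seen, were all under 1 FPKM in every library. In contrast, Gsdmd, the gasdermin cut by caspase-1, averaged 15.3 and 16.3 FPKM, and Nek7, a kinase that NLRP3 requires, 19.1 and 19.0 FPKM, without and with BHB.

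Receptor signalling genes were all present, with log2 fold changes between -0.15 (Irak4) and 0.09 (Myd88). All 17 genes of the MyD88 and IRAK list were tested, 9 above 0 and 8 below, with a median of 0.01. In limma 0 passed or reached an unadjusted p under 0.05. Of all genes tested, 0.0566% passed, and 3.45% (higher) and 2.14% (lower) reached that unadjusted p. Thus 0 of 17 also says little about this list. Irak4, the first kinase of the pathway, was the gene of this list whose groups did not overlap, at 5.59, 5.27 and 5.36 FPKM in the controls and 4.48, 4.72 and 5.08 FPKM with BHB (log2 fold change -0.15, 95% interval -0.31 to 0.00, limma adjusted p = 0.881). That is 1 of 17 with BHB lower, against 4.45% of all genes tested. Irak1, the most abundant, stood at 60.2 and 61.5 FPKM. Tab3, which links TRAF6 to the kinase TAK1, and Peli1, a ubiquitin ligase of the IRAK complex, had log2 fold changes of -0.11 and -0.08. The value of Myd88 was 0.01 without BHB 2 and that of Tab3 -0.06 without BHB 2.

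Of the genes listed as induced by IL-1 in astrocytes, most of those tested lay above 0. None passed, where 0.0566% of all genes tested did. Of 22 listed genes 15 were tested, 13 above 0 and 2 below, where 51.5% of all genes tested lay above 0, and the median log2 fold change was 0.17. At an unadjusted p under 0.05 there were 7 of 15, all higher, against 3.45% of all genes tested in that direction. The list was chosen with earlier results of these data known, so these counts describe the listed genes and are not a test. Ccl2, a monocyte chemokine, stood at 25.1, 25.7 and 20.3 FPKM in the controls and 29.9, 34.1 and 29.8 FPKM with BHB. Among the 15 tested genes, Ccl2, Ccl7, Tnfaip3 and Nfkbiz had separated groups, an arrangement found in 6.43% of all genes tested with BHB higher. Their log2 fold changes were 0.39, 0.30, 0.36 and 0.30 (limma adjusted p = 0.881 each). Vcam1, the most abundant, had 0.01, and it turned to -0.01 when the libraries were scaled to equal sums. Cxcl1, Icam1 and Nfkbia, named after their values were seen, made up the 7. The 2 tested genes below 0, also named afterwards, were C3 and Ptgs2, with log2 fold changes of -0.18 and -0.09. The genes not tested, Il6, Cxcl2, Nos2, Csf2, Csf3, Mmp3 and Mmp9, averaged under 1 FPKM in both groups. Cxcl2, named afterwards, also had separated groups at this low level. It stood at 0.188, 0.124 and 0.108 FPKM in the controls and at 0.712, 0.252 and 0.340 FPKM with BHB. NF-kB is also activated by other receptors, so this list is not specific to IL-1.

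**Figure D4:**
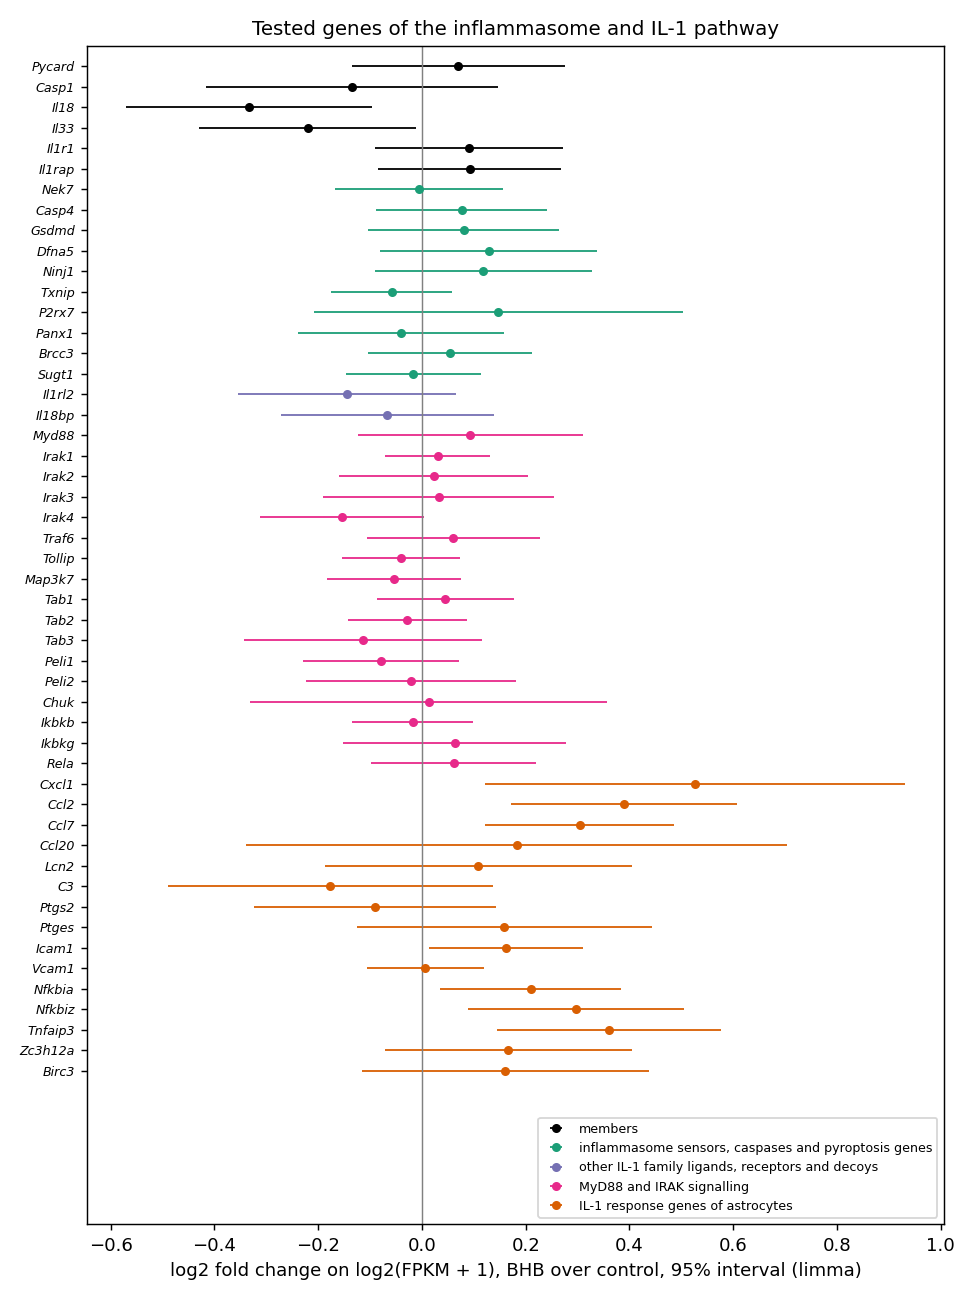
Log2 fold change, BHB over control, with 95% intervals from limma for the 6 tested inflammasome and IL-1 family genes and the tested genes of the 4 pathway lists, coloured by list. Intervals of Il18 and Il33 lie below 0, those of the signalling genes cross 0, and 7 of the IL-1 response genes have intervals above 0. The lists were chosen with earlier results of these data known.

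The inflammasome and several IL-1 family genes are also genes of microglia, the immune cells of the brain, whose RNA was present in the cultures. Of 20 microglia and macrophage markers 17 were tested, 8 above 0 and 9 below, with a median log2 fold change of 0.00. Of the 17, 0 passed, against 0.0566% of all genes tested. The summed level of the 20 markers ran from 94.0 to 107.6 FPKM in controls and from 97.8 to 100.6 FPKM with BHB. These ranges overlapped. The most abundant was Fcer1g, at 21.0 ± 3.81 and 18.3 ± 1.63 FPKM (SD, n = 3 each), and Cd163 was listed at 0 in all libraries. Cx3cr1, a receptor of microglia named after its values were seen, lay below the controls in all BHB libraries, at 6.02, 5.42 and 6.07 FPKM in the controls and 4.84, 4.99 and 4.15 FPKM with BHB (log2 fold change -0.27, limma adjusted p = 0.881), whereas Aif1 and Tmem119, also named afterwards, lay above the controls in all BHB libraries, with log2 fold changes of 0.08 and 0.23. In this list the groups did not overlap in 2 of 17 genes with BHB higher, against 6.43% of all genes tested, and in 1 with BHB lower, against 4.45%. At an unadjusted p under 0.05 there was 1 of 17, Cx3cr1, against 2.14% of all genes tested in that direction. The part of these cells in the values of Il18 and Il33 was not tested, and in bulk RNA fewer cells of a type and less RNA per cell cannot be told apart.

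Oligodendrocyte markers, with Cnp the most abundant, summed to 93.5 to 98.9 FPKM in controls and 96.4 to 100.3 FPKM with BHB, and of 8 tested 0 passed. Mog, a myelin protein gene, stood at 5.47 FPKM in control 1 and at 0.220 to 0.529 FPKM in the other libraries. Without Mog, a choice made after the values were seen, the oligodendrocyte sums were 93.2 to 94.0 FPKM in controls and 95.8 to 99.9 FPKM with BHB and did not overlap. Neuron markers, led by Stmn2, summed to 93.6 to 97.5 and 91.7 to 95.1 FPKM. Fibroblast and mural markers, led by Tagln, summed to 4483 to 4858 and 4637 to 5021 FPKM, and endothelial markers, led by Eng, to 3.36 to 3.69 and 3.22 to 4.14 FPKM. With all listed genes included, the ranges of these 4 lists overlapped between the groups. Each sum follows its most abundant genes and does not measure the share of a cell type. In the fibroblast and mural list, control means were 3030 FPKM for Tagln, 1285 FPKM for Acta2 and 271 FPKM for Col1a2. Those of Dcn and Lum were 0.0108 and 0.12 FPKM. Acta2, Col1a2, Dcn and Lum were named after their values were seen. Astrocyte markers, led by Fabp7, summed to 5309 to 5602 FPKM in controls and 5736 to 5770 FPKM with BHB, and these ranges did not overlap. Of 15 tested, 1 passed, against 0.0566% of all genes tested. It was Slc1a3, the glutamate transporter gene. Without it, a choice also made after the values were seen, the sums were 5103 to 5405 and 5271 to 5317 FPKM and overlapped. The groups did not overlap in 3 of the 15 with BHB higher, Slc1a3, Glul and Fgfr3, and in 1 with BHB lower, Sox9, against 6.43% and 4.45% of all genes tested, and Glul, Fgfr3 and Sox9 were named after their values were seen. The part of other cell types in the values of the 10 genes was not tested.

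Over the 6 libraries, the genes whose pattern was most like that of Il18 among 11122 genes of at least 2 FPKM were Ccdc191, Wfs1 and Tmtc2, with Pearson correlations of 0.991, 0.986 and 0.982. The means of Wfs1, which encodes the endoplasmic reticulum protein wolframin, were 10.8 FPKM without and 9.52 FPKM with BHB. For Il1r1 they were Peg12, Tm2d2 and Vps45, at 0.989, 0.986 and 0.974. With 6 points and this many genes, correlations of this size are a description of these libraries only, and 0 of the 6 genes passed in limma.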

How the data were processed

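Poly(A) RNA libraries were made with the TruSeq kit, per the labels' protocols. The authors deposited FPKM values per gene symbol. The submitters' processing notes name bcl2fastq 2.0, HISAT2, StringTie, DESeq2 and build rn6, without roles or settings. FPKM is not a count, and read depth is unknown. FPKM sums ran from 354565 to 367448, with 12288 to 12312 genes at 1 FPKM or more. Nlrp3, Il1rn, Il33, Il1r1 and Il1rap have values with up to 9 decimals and the other 5 genes up to 6, and the sources used here do not say how transcripts were combined.

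Libraries were grouped by the treatment in their titles. Genes that reached 1 FPKM in 3 or more libraries were fitted as log2(FPKM + 1) with limma 3.58.1 in R 4.3.3 (eBayes with trend), two-sided, with Benjamini-Hochberg adjustment over 12373 genes and a threshold of 0.05. This scale understates changes of low genes. Each member also had an exact two-sided permutation test of mean FPKM. The fit was tested on simulated data with normal noise and changes larger than those of any tested member. That test does not cover changes of the size seen in the members. Gsdme was found under its synonym Dfna5.

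The members and gene lists were chosen with earlier results of these data known. All members were named, with up to 4 genes of smallest p and the most abundant gene per pathway list, and the most abundant per marker list. Likeness was ranked for the member with the smallest p and the most abundant member. Alternatives were a pseudocount of 0.1, no minimum, no trend, equal sums, quantile normalization, a replicate block and leaving out each library. The promoter windows are from RefSeq (GRCr8), a build other than that of the values.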

Additional observations from a re-analysis of the deposited data

How the results depend on the processing

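No member passed under any alternative run. All 72 alternative values of the 6 tested members kept their direction, with log2 fold changes of -0.44 to -0.26 for Il18 and -0.30 to -0.16 for Il33, and adjusted p-values of 0.685 to 1.00 (limma) over all settings for Il18. The lower ends came with a pseudocount of 0.1 for Il18 and without BHB 3 for Il33. Il18 kept an unadjusted p under 0.05 in each setting, with a highest value of 0.0458. Il33 did not, so the number of members at that level was 1 without a minimum and 1 with the replicate block, and 1 to 2 when a library was left out. Over all genes 7 passed, against 4 without a trend and 2 with the replicate block, and the cause was not tested. When a library was left out, 5 to 10 passed. Deviations from the group means correlated at -0.0899, 0.164 and -0.151 between same-numbered libraries 1, 2 and 3, and at 0.203 between control 3 and BHB 1 and 0.186 between control 1 and BHB 3. Not every same-numbered pair was positive, so the numbers were not taken as pairs, and the labels give no other pairing. Of the pathway genes 7 had an unadjusted p under 0.05, and 4 to 8 when a library was left out, with 4 without control 1. Of 336 values of the 28 other genes named by the rule 8 turned. Genes named after their values were seen were not refitted. Scaling to equal sums gave -0.00979 for Vcam1 and quantile normalization -0.0313 for Tagln, and the cause was not tested. With a library left out, the value ran from -0.147 to 0.0103 for Il18bp, -0.0280 to 0.0254 for Vcam1, -0.0362 to 0.0197 for Fabp7, -0.00421 to 0.0638 for Tagln and -0.0264 to 0.176 for Eng. Depth is unknown, and 4 of the 10 genes lay below the minimum for the test and were fitted only without it.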
